A study of Rattus norvegicus with 6 samples.

Results

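Shbg, Clu, Ptgds, Aard and Tsx are 5 genes transcribed in Sertoli cells, the somatic cells that line the seminiferous tubule and nurse the germ cells. The 5 genes were chosen by name, out of 14506 genes measured on rat arrays, and each was read by its only probe set that is annotated to a single gene. Signals were compared between primary testis cultures, given as Sertoli cells in the labels, from 21-day-old rats and from 9-day-old rats, with 3 arrays of each age. Per the labels the 21-day-old cells come after the phase of Sertoli cell proliferation and the 9-day-old cells fall within it. At both ages testes were decapsulated and digested and the cells were kept in DMEM/F12, to which 10% fetal bovine serum had been added, with a change of medium after 24 hours. All values below are log2 signals normalized by the authors with RMA, and differences are 21 days minus 9 days of these log2 values. The purpose given for the comparison was to find genes of cell division and of cell death that bear on Sertoli cell function.

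Sertoli cells make many of the proteins found in the fluid of the tubule. Shbg encodes the androgen-binding protein, which binds testosterone and is carried with the fluid towards the epididymis. Clu encodes clusterin, also known as sulfated glycoprotein 2, a secreted chaperone that binds lipids and misfolded proteins and is a major secreted product of rat Sertoli cells. Ptgds encodes the lipocalin-type prostaglandin D synthase, a secreted enzyme that makes prostaglandin D2 and also carries small lipophilic molecules such as retinoids. Aard and Tsx are grouped with these as transcripts of Sertoli cells rather than as secreted proteins. Aard encodes a small protein rich in alanine and arginine whose molecular role is poorly known, and Tsx is a testis-specific gene of the X chromosome that was described in Sertoli cells and germ cells.

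The mean signal of each of the 5 genes was higher in the cultures from 21-day-old rats, by 1.16 for Shbg, 0.72 for Aard, 0.69 for Clu, 0.42 for Tsx and 0.05 for Ptgds. The median of these differences was 0.69, against -0.0093 over all 14506 genes. None of the 5 passed the test across all genes (limma, Benjamini-Hochberg adjusted p under 0.05), and the adjusted p was 1 for each. That test called 0 of the 14506 genes (0%). At an unadjusted p under 0.05 it found 431 genes (2.97%), and 0 of the 5 were among them. With the replicate number as a block, that threshold was met by 1122 genes (7.73%), among them 1 of the 5, Clu with an unadjusted p of 0.013 and an adjusted p of 0.50. For Shbg alone the arrays of the 2 ages did not overlap, which was so for 2.74% of all genes with the older cultures higher. The titles do not say whether the replicates were separate animals or cultures, so these p-values measure only the spread between the arrays, which may be technical.

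The array of 21-day-old replicate 3 carried much of the differences of Shbg, Clu and Tsx. It carried little of that of Aard, which was 0.67 without this array and 0.72 with all 6. The signal of 21-day-old replicate 3 was the highest of the 6 arrays for 4 of the 5 genes, Shbg, Clu, Ptgds and Tsx, against 17.9% of all genes. For Shbg and Tsx it lay at least 1 above each other array, against 0.738% of all genes. In the pair of arrays numbered 3 the older culture was at least 1 higher for 4 of the 5 genes, against 1.32% of all genes. In the pairs numbered 1 and 2 the older culture was at least 1 higher for none of the 5, against 0.296% and 0.29% of all genes. The 5 genes were picked with earlier results of these arrays known, so these shares describe them and test nothing. Within each age the array numbered 3 was the least like the other 2 across all genes. At 21 days it correlated at 0.984 and 0.978 with replicates 1 and 2, which correlated at 0.991 with each other. At 9 days the gap was smaller, with 0.991 and 0.990 against 0.995. The differences of the 5 genes are given below with and without the arrays that carry them.

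**Figure D1:**
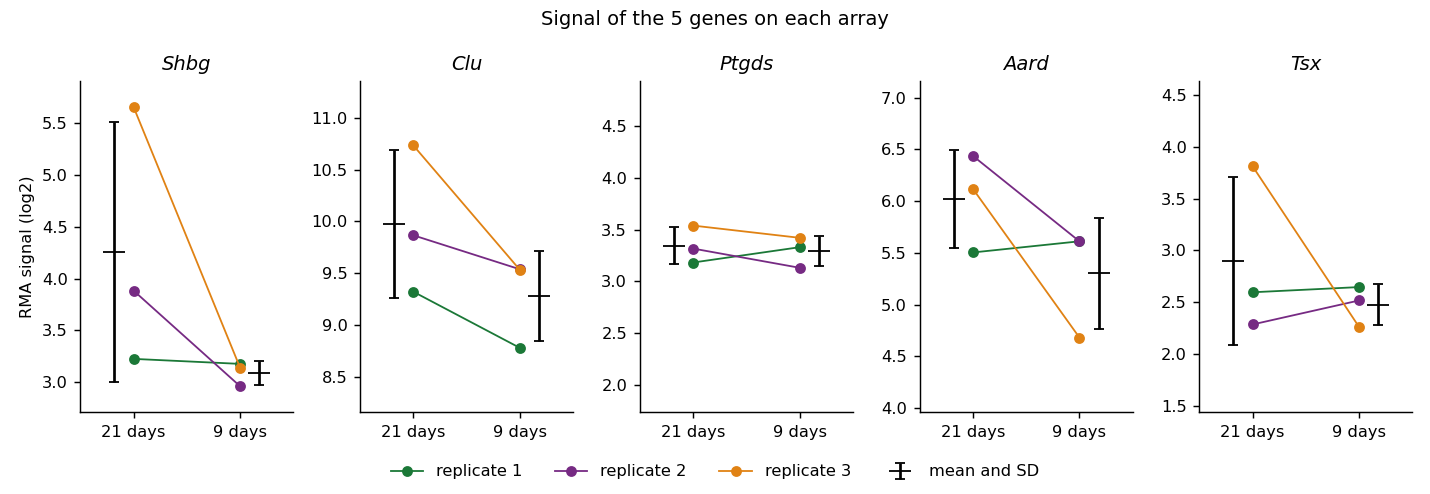
Log2 signal of Shbg, Clu, Ptgds, Aard and Tsx on each array (vertical axis, 3.2 log2 units in each panel), for 21 days on the left and 9 days on the right. Coloured lines join arrays of the same replicate number, and black bars show the mean and SD of the 3 arrays of an age. The orange point at 21 days is the highest of its panel for Shbg (5.66), Clu (10.73), Ptgds (3.54) and Tsx (3.81), but not for Aard.

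Shbg had the largest difference of the 5. Its signal was 3.22, 3.88 and 5.66 in 21-day-old replicates 1, 2 and 3, against 3.18, 2.96 and 3.14 in 9-day-old replicates 1, 2 and 3. The younger arrays lay close together, whereas the older ones spread from a value next to them to one far above. The means were 4.25 ± 1.26 at 21 days and 3.09 ± 0.12 at 9 days (SD, n = 3 each), a 2.24-fold difference. In limma the difference was 1.16 ± 0.61 (SE), with a 95% interval from -0.33 to 2.66 and an adjusted p of 1, and its rank by size among the genes higher at 21 days was 40. An exact two-sided permutation test gave p = 0.10, the smallest that 3 arrays against 3 allow. By replicate number the older culture was higher by 0.05, 0.92 and 2.52, so replicate 1 showed almost none of it. Without 21-day-old replicate 3 the difference was 0.46. Without both arrays numbered 3 it was 0.49, with means of 3.55 at 21 days and 3.07 at 9 days.

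The signal of Shbg in 21-day-old replicate 3 exceeded that of 62.1% of the genes on its array. In the other older arrays it exceeded 32.5% and 41.3%, and in the younger ones 26.8% to 31.6%. Such a rank is only a rough guide, because probe sets differ in how brightly they report a transcript. Detection calls were not used here, so it is unknown whether the younger signals exceeded background, and a fold change measured from them may understate the true one. Culture signals also cannot tell a larger share of cells that express a gene from more of its RNA per cell.

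Clu gave a high signal in every culture. It was at 9.32, 9.87 and 10.73 in 21-day-old replicates 1, 2 and 3, against 8.78, 9.54 and 9.53 in the 9-day-old replicates. It exceeded between 94.7% and 99.2% of the genes on each array. The ages overlapped, since 21-day-old replicate 1 lay below 9-day-old replicates 2 and 3. The means were 9.97 ± 0.71 at 21 days and 9.28 ± 0.44 at 9 days (SD, n = 3 each), a 1.61-fold difference. The difference was 0.69 ± 0.40 (limma, SE), with a 95% interval from -0.30 to 1.68 and an adjusted p of 1, and the exact two-sided permutation test gave p = 0.30. With the replicate number as a block, limma gave an SE of 0.18, an unadjusted p of 0.013 and an adjusted p of 0.50. Within each replicate number the older culture was higher, by 0.54, 0.33 and 1.20, and Shbg and Clu were the 2 genes of the 5 for which all 3 pairs ran that way, as they did for 10.7% of all genes. The difference of Clu was 0.31 without 21-day-old replicate 3 and 0.44 without 9-day-old replicate 1, and 0.44 without both arrays numbered 3.

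Ptgds was nearly flat. Its signal was 3.18, 3.32 and 3.54 at 21 days (replicates 1, 2 and 3) and 3.33, 3.13 and 3.42 at 9 days. These values interleaved, and all 6 lay within 0.41 of each other. The means were 3.35 ± 0.18 at 21 days and 3.29 ± 0.15 at 9 days (SD, n = 3 each), and the difference was 0.05 ± 0.12 (limma, SE; adjusted p of 1). The 95% interval from -0.25 to 0.36 leaves out a 2-fold difference of the signal in either direction. The sign turned to -0.045 without 21-day-old replicate 3 and to -0.029 without 9-day-old replicate 2. On each array Ptgds exceeded 30.2% to 36.3% of the genes, below the median, so the small difference does not show that a low transcript level was the same at both ages.

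Aard was the gene of the 5 whose highest array was not 21-day-old replicate 3. It was at 5.50, 6.44 and 6.12 in 21-day-old replicates 1, 2 and 3, against 5.61, 5.61 and 4.68 in the 9-day-old replicates. Older replicates 2 and 3 lay above all younger arrays, and older replicate 1 lay below 2 of them. The first 2 younger values were identical in all digits deposited, as were those of 929 genes between these 2 arrays. Such ties occurred for 729 to 1095 genes between any 2 arrays. The means were 6.02 ± 0.47 at 21 days and 5.30 ± 0.54 at 9 days (SD, n = 3 each), a 1.65-fold difference. The difference was 0.72 ± 0.35 (limma, SE), with a 95% interval from -0.14 to 1.57 and an adjusted p of 1, and the exact two-sided permutation test gave p = 0.30. By replicate number it was -0.11, 0.83 and 1.44. Here the low value of 9-day-old replicate 3 counted most, and the difference was 0.41 without that array, 0.67 without 21-day-old replicate 3 and 0.36 without both arrays numbered 3.

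Tsx was near the bottom of the range on all arrays but one. Its signal was 2.60, 2.28 and 3.81 in 21-day-old replicates 1, 2 and 3, against 2.65, 2.52 and 2.26 in the 9-day-old replicates. Leaving aside 21-day-old replicate 3, the older arrays lay within the range of the younger ones. The lower quartiles of the arrays, over all genes, were 2.87 to 2.95, so 21-day-old replicate 3 was also the only array on which Tsx lay above them. The means were 2.90 ± 0.81 at 21 days and 2.47 ± 0.20 at 9 days (SD, n = 3 each), and the difference was 0.42 ± 0.40 (limma, SE; adjusted p of 1), and the exact two-sided permutation test gave p = 0.60. By replicate number it was -0.05, -0.23 and 1.55. The sign turned to -0.034 without 21-day-old replicate 3 and to -0.14 without both arrays numbered 3.

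**Figure D2:**
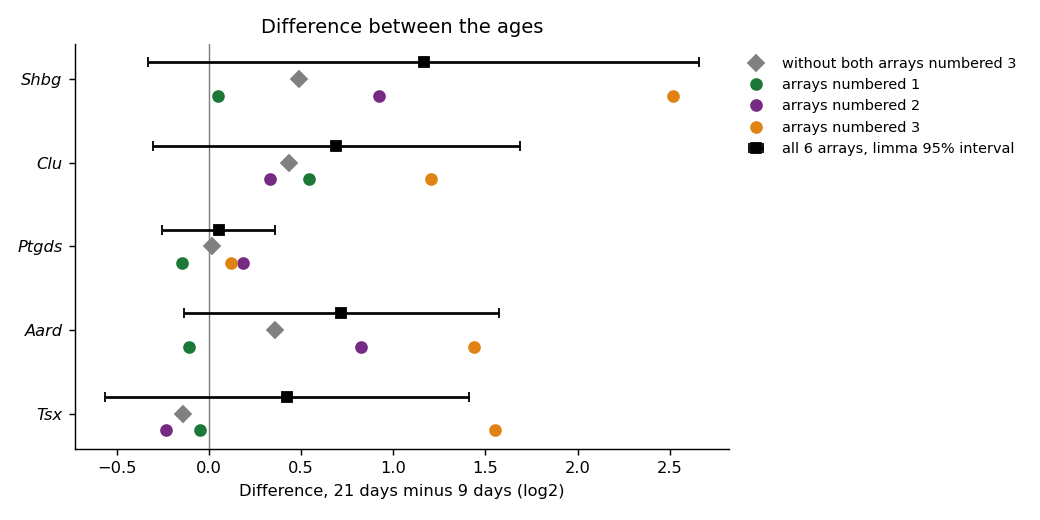
Difference between the ages, 21 days minus 9 days (horizontal axis, log2), for each gene. Squares and bars show all 6 arrays with limma's 95% interval, diamonds the value without both arrays numbered 3, and circles the pairs that share a replicate number. Every interval, from the fit without the replicate number as a block, includes 0. The orange circles of the arrays numbered 3 lie farthest right for Shbg, Clu, Aard and Tsx.

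The 250 bases before the annotated start are shown for Shbg and Tsx, the pair whose highest array was 21-day-old replicate 3 by at least 1, and for Ptgds, which was nearly flat. They come from the RefSeq annotation of build GRCr8, run from 5′ to 3′ on the strand of the gene and end at the base before the start. The window of Shbg is chr10:54834902-54835151 on the minus strand, that of Tsx chrX:72492897-72493146 on the plus strand and that of Ptgds chr3:28682979-28683228 on the minus strand. Capitals mark matches on either strand to 8 short motifs.
Shbg: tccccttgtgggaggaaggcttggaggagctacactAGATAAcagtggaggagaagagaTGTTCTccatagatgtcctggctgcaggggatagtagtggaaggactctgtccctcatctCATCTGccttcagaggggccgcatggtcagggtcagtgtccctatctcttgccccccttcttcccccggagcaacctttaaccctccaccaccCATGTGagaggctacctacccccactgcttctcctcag
Tsx: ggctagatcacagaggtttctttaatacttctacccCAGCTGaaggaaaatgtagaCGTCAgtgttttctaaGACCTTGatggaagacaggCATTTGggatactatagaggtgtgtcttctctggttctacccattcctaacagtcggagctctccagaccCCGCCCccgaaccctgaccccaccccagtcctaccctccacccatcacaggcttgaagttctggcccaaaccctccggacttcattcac
Ptgds: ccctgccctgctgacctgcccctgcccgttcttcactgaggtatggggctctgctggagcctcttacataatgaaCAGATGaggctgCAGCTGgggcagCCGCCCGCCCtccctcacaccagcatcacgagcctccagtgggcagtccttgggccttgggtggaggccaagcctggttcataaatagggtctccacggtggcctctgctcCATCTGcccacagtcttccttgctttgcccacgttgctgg

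The motifs were the TATA box TATAAA, the E-box CANNTG, the GATA motif AGATAA, the SOX motif AACAAT, the core AGAACA of an androgen response element, the core TGACG of a cyclic AMP response element, the steroidogenic factor motif CAAGGTC and the GC box GGGCGG. No match of 1 motif overlapped another motif, though the 2 GC boxes of Ptgds overlap each other. Shbg held 2 E-boxes, 1 GATA motif and 1 androgen response core, Tsx held 2 E-boxes, 1 cyclic AMP response core, 1 steroidogenic factor motif and 1 GC box, and Ptgds held 3 E-boxes and 2 GC boxes. Among 33469 promoter windows of the same length, 65.5% held an E-box, 10.3% the GATA motif, 17.5% the androgen response core, 18.2% the cyclic AMP response core, 3.61% the steroidogenic factor motif and 30.5% the GC box. The E-box was thus the only motif that Shbg and Tsx had in common, and Ptgds held it too. The TATA box, found in 12.9% of windows, and the SOX motif, found in 10.3%, were in none of the 3. These matches describe letters and do not show that a factor binds.

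The 2 neighbouring genes that were measured had lower means at 21 days, unlike the 5. In GRCr8 Sat2, an acetyltransferase gene, overlaps Shbg. It was at 5.01, 4.97 and 4.04 in 21-day-old replicates 1, 2 and 3, against 5.39, 5.26 and 4.42 in the 9-day-old replicates. It was thus low in the arrays numbered 3 at both ages and lowest in the array where Shbg was highest. Its difference was -0.35 ± 0.37 (limma, SE; adjusted p of 1). Without 21-day-old replicate 3 it was -0.037, but that leaves the low 9-day-old replicate 3 in. By replicate number it was -0.38, -0.29 and -0.38. With the replicate number as a block, limma gave it an SE of 0.069 and an adjusted p of 0.40. Scara3, a scavenger receptor gene whose annotation overlaps that of Clu, was at 5.86, 5.04 and 5.05 at 21 days and 6.03, 5.74 and 5.61 at 9 days. Its difference was -0.48 ± 0.25 (SE; adjusted p of 1), opposite in sign to that of Clu. The nearest annotated genes of Ptgds, Aard and Tsx were not measured by a probe set named here.

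The genes most similar to each of the 5 were sought over the 6 arrays by the root mean square difference between log2 profiles, each centred on its own mean. Both ages entered this measure, so similar age differences, with or without an array, follow from the matching and test nothing. Nearest to Shbg were the adhesion gene Gldn (0.14), the semaphorin gene Sema3d (0.17) and Gatm, which encodes the first enzyme of creatine synthesis (0.17). Gatm was at 5.04, 5.27 and 7.30 in 21-day-old replicates 1, 2 and 3, against 4.58, 4.32 and 4.56 in the 9-day-old replicates, so its older arrays all lay above the younger ones. Its difference was 1.39 ± 0.60 (limma, SE; adjusted p of 1), and 0.67 without 21-day-old replicate 3. For Gldn and Sema3d the differences were 0.99 and 1.00, or 0.30 and 0.22 without that array.

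Nearest to Clu were Ace, which encodes the angiotensin-converting enzyme (0.16), the growth factor gene Pdgfb (0.16) and the cytokine gene Il33 (0.17). Il33 was at 5.65, 6.45 and 6.97 in 21-day-old replicates 1, 2 and 3, against 5.22, 5.65 and 5.65 in the 9-day-old replicates, the same order of arrays within each age as Clu. The differences of Ace, Pdgfb and Il33 were 0.75, 0.62 and 0.85, or 0.45, 0.13 and 0.54 without 21-day-old replicate 3. Nearest to Aard were the sialyltransferase gene St3gal4 (0.19), the cystatin gene Cst3 (0.21) and the kinase gene Ptk2b (0.22). Ptk2b was at 7.57, 8.09 and 7.66 at 21 days and 7.17, 7.17 and 6.67 at 9 days, without overlap, and differed by 0.77 ± 0.20 (limma, SE; adjusted p of 1). St3gal4 and Cst3 differed by 0.69 and 0.53, or by 0.42 and 0.24 without 9-day-old replicate 3. Nearest to Tsx were Aldh6a1, an enzyme gene of valine breakdown (0.12), the guanylate-binding protein gene Gbp5 (0.12) and the actin regulator gene Cyfip2 (0.14). All 3 were high in 21-day-old replicate 3 alone, with Aldh6a1 at 7.02 there against 5.68 to 5.83 on the other 5 arrays. They differed between the ages by 0.37 for Aldh6a1, 0.35 for Gbp5 and 0.53 for Cyfip2, and without that array by -0.052, -0.015 and 0.07. The 5 genes were not each other's nearest. Around Shbg, Clu ranked 74 by this measure (0.50) and Tsx 96 (0.54), and around Clu, Tsx ranked 476 (0.45). Ptgds, with a span under 1, was not matched. Profiles of 6 arrays that share 1 extreme array are easily alike, and no p is given.

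**Figure D3:**
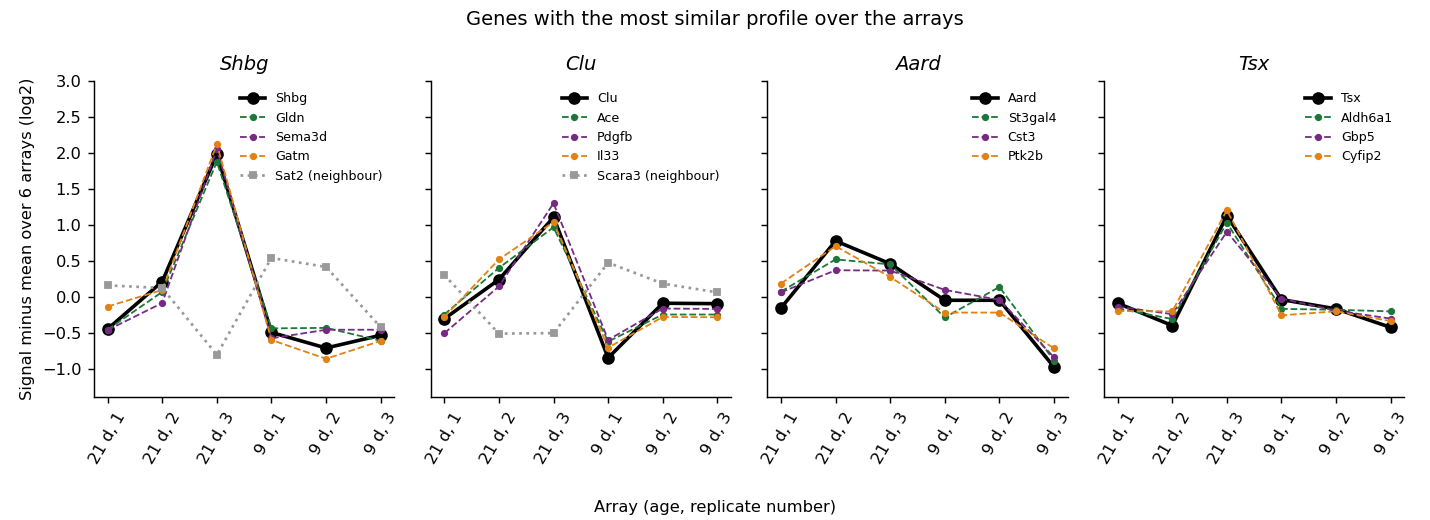
Log2 signal minus its mean over the 6 arrays (vertical axis) on each array (horizontal axis, age and replicate number) for Shbg, Clu, Aard and Tsx in black, with the 3 genes of most similar profile in colour and, where measured, the overlapping neighbour in grey. Gatm reaches 7.30 in 21-day-old replicate 3 beside Shbg at 5.66, while Sat2 is lowest there (4.04).

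Other secreted products of Sertoli cells were also mostly higher in the older cultures, without passing the test. Of 27 measured genes of this list 23 had a higher mean at 21 days and 4 a lower one, with a median difference of 0.21, while 46.5% of all genes were higher. None passed, and 4 had an unadjusted p under 0.05 (limma), against 2.97% of all genes. Those 4 were Tf, Testin, Hpx and Il1a. For 5 of the 27 the ages did not overlap, 4 with the older cultures higher and 1 with them lower, against 5.72% of all genes in either direction. The list includes Tf, Testin and Hpx, which were among the largest differences in an earlier analysis of these arrays. The counts of this list therefore describe it and test nothing. Tf, the iron carrier transferrin, was at 8.33, 8.76 and 11.13 in 21-day-old replicates 1, 2 and 3, against 5.09, 6.16 and 6.19 in the 9-day-old replicates. Testin, named for a protein secreted by Sertoli cells, was at 4.25, 4.53 and 7.17 at 21 days and 3.06, 2.97 and 3.10 at 9 days. Both peaked in 21-day-old replicate 3, as Shbg did, but also lay above all younger arrays in older replicates 1 and 2 by more than 1. Hpx, which encodes the heme carrier hemopexin, was at 8.99, 9.84 and 9.12 against 6.49, 7.97 and 7.41, with no peak in replicate 3.

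The lipocalins, the family of small carrier proteins to which Ptgds belongs, had a few members that differed more than Ptgds. Of 12 measured members 7 had a higher mean at 21 days and 5 a lower one, with a median difference of 0.024 and none past the test, and 11 of the 12 had a mean signal below the medians of the arrays. Apod, a lipocalin carried on lipoproteins, was at 3.16, 3.52 and 5.12 in 21-day-old replicates 1, 2 and 3, against 3.16, 2.97 and 3.00 in the 9-day-old replicates. It thus stood out in the same array as Shbg, and its difference of 0.89 ± 0.50 (limma, SE; adjusted p of 1) was 0.30 without that array. Lcn2, which binds siderophores, differed by 0.45 ± 0.30, or by 0.12 without 9-day-old replicate 3. Orm1, an acute-phase carrier, differed by 0.39 ± 0.28, or by 0.16 without 21-day-old replicate 1.

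Genes of prostaglandin synthesis, transport and response had a median difference of 0.039, with 14 of 23 measured members higher at 21 days, 9 lower and none past the test. The largest difference was that of Ptgs1, the constitutive cyclooxygenase that makes the substrate of the Ptgds enzyme. It was at 7.17, 5.96 and 6.43 in 21-day-old replicates 1, 2 and 3, against 5.69, 5.91 and 5.09 in the 9-day-old replicates. The ages did not overlap, though older replicate 2 and younger replicate 2 nearly met. The difference was 0.95 ± 0.36 (limma, SE; adjusted p of 1), or 0.63 without 21-day-old replicate 1. Ptgs2, the other cyclooxygenase gene of the list, differed by 0.04 ± 0.20, with means of 9.96 at 21 days and 9.92 at 9 days. Slco2a1, the prostaglandin transporter, differed by 0.34 ± 0.41 and by -0.14 without 21-day-old replicate 1. Ptgis, the prostacyclin synthase, differed by 0.32 ± 0.34 and by -0.0088 without 21-day-old replicate 3. By replicate number its difference was 0.24, 0.21 and 0.50.

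Partners and uptake receptors of the secreted proteins differed little. Of 7 measured genes 3 had a higher and 4 a lower mean at 21 days, the median difference was -0.032 and none passed. Dab2, an adaptor of endocytic receptors, differed by 0.11 ± 0.15 (limma, SE; adjusted p of 1) and by 0.022 to 0.26 without 1 array at a time, Lrp1, a large endocytic receptor, by -0.09 ± 0.13 and Lrpap1, its chaperone, by -0.07 ± 0.09. Lrp1 turned to 0.041 without 9-day-old replicate 3 and Lrpap1 to 0.014 without 21-day-old replicate 3.

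Apolipoproteins, to which clusterin belongs as apolipoprotein J, had a median difference of 0.036, with 8 of 11 measured genes higher and none past the test. Apoe was at 7.47, 9.44 and 7.45 in 21-day-old replicates 1, 2 and 3, against 7.38, 8.51 and 7.63 in the 9-day-old replicates. It was high in replicate 2 at both ages and not in replicate 3, unlike Clu, and its difference of 0.28 ± 0.62 (limma, SE; adjusted p of 1) was -0.38 without 21-day-old replicate 2. Apoc4 differed by -0.14 ± 0.11, or by -0.053 without 9-day-old replicate 1, and Apoa5 by -0.12 ± 0.17, or by 0.035 without 21-day-old replicate 1. Regulators of Sertoli cell genes had 10 of 17 measured members higher, a median difference of 0.018 and none past the test. Tcf21, a basic helix-loop-helix factor, differed by -0.38 ± 0.24, or by -0.19 without 9-day-old replicate 2. By replicate number its difference was -0.40, -0.34 and -0.40. The receptor gene Fshr differed by 0.32 ± 0.26 and the transcription factor gene Wt1 by 0.22 ± 0.13, or by 0.025 and 0.10 without 21-day-old replicate 3.

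**Figure D4:**
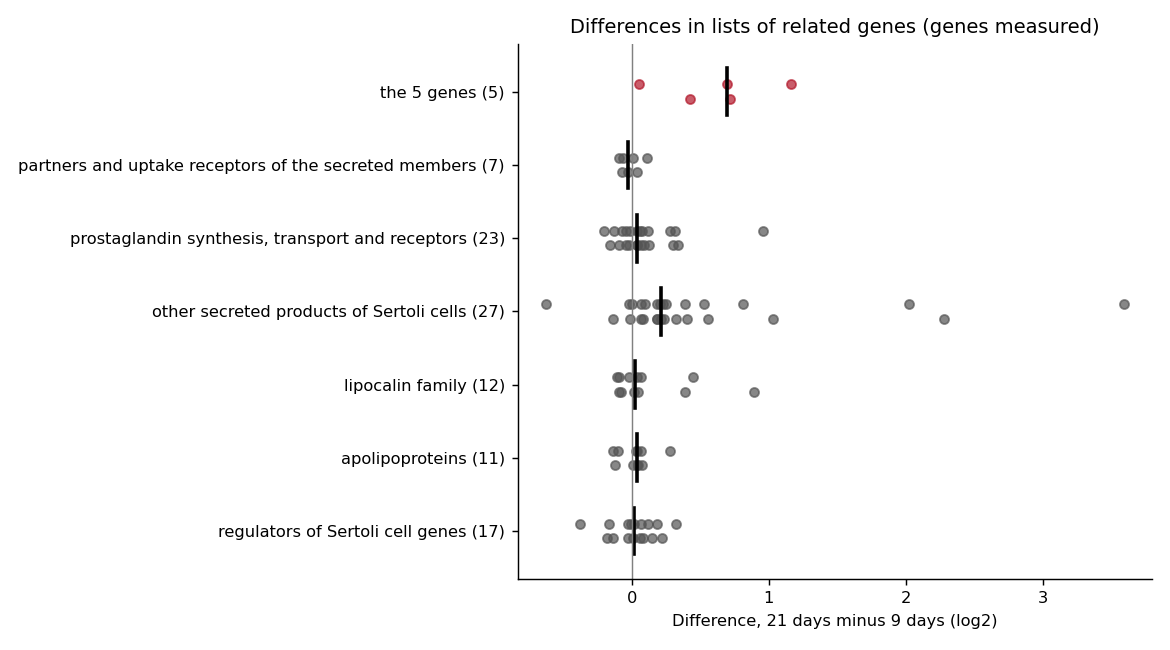
Difference between the ages, 21 days minus 9 days (horizontal axis, log2), of each measured gene in the lists of related genes, with the number measured in parentheses. Each point is a gene and each black line a median, 0.69 for the 5 genes in red, 0.21 for the other secreted products and between -0.032 and 0.039 for the remaining lists.

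Markers of cell types moved with the arrays as well. Of 12 Sertoli cell markers 8 had a mean signal below the medians of all arrays, 4.61 to 4.70, among them Amh, Fshr and Cldn11, while Gata4 and Wt1 exceeded at least 86.7% and 78.7% of the genes. The 6 markers of smooth muscle and peritubular myoid cells and the 7 of fibroblasts all lay above those medians, and Acta2, a contractile actin, and Col1a1, a collagen chain, exceeded at least 99.7% and 99.5% of the genes. Clu is known from many cell types besides Sertoli cells. Mean marker signals of smooth muscle and myoid cells were 9.13, 8.43 and 10.73 in 21-day-old replicates 1, 2 and 3, against 9.23, 9.47 and 10.87 in the 9-day-old replicates. Acta2 differed between the ages by -0.24 ± 0.37 (limma, SE; adjusted p of 1), Tagln, an actin-binding protein gene, by -0.13 ± 0.32 and Actg2, a smooth muscle actin, by -0.70 ± 1.02. The myoid markers were thus high in the arrays numbered 3 at both ages. Ptgds was also highest in the arrays of that number at both ages (3.54 at 21 days and 3.42 at 9 days). Shbg, Clu and Tsx were highest in the array of that number at 21 days and not at 9 days. For Clu, 9-day-old replicates 2 and 3 nearly tied (9.54 and 9.53). The Sertoli cell list was at 4.42, 4.70 and 5.15 at 21 days and 4.14, 4.33 and 4.34 at 9 days, highest where Shbg, Clu, Ptgds and Tsx were highest. Tf carried much of this: without it, a choice made after seeing the data, the list was at 4.06, 4.33 and 4.60 at 21 days and 4.05, 4.16 and 4.17 at 9 days, and the difference of its means was 0.21 in place of 0.49. The part of these markers in the differences of the 5 genes was not tested.

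Germ cell markers bear on Tsx, which germ cells also express. All 7 measured had a mean signal below the medians of the arrays. Their mean was 2.62, 2.74 and 3.14 in 21-day-old replicates 1, 2 and 3, against 2.66, 2.82 and 2.77 in the 9-day-old replicates, so it too was highest in 21-day-old replicate 3. Tex101, a germ cell surface protein gene, was at 2.68, 3.04 and 4.01 at 21 days and 2.91, 3.27 and 3.00 at 9 days. Zbtb16, a factor of spermatogonia, differed by -0.22 ± 0.08 (limma, SE; adjusted p of 1), and its older arrays lay below the younger ones. Mael differed by 0.29 ± 0.16, or by 0.13 without 21-day-old replicate 3. The part of germ cells in the high Tsx signal of that array was not tested.

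Leydig cell markers averaged 4.16, 4.33 and 4.22 in 21-day-old replicates 1, 2 and 3, against 4.22, 4.13 and 4.27 in the 9-day-old replicates, and 5 of the 6 lay below the medians of the arrays. The exception was Star, the cholesterol carrier of steroid synthesis, at 11.13 ± 0.25 at 21 days and 11.01 ± 0.16 at 9 days (SD, n = 3 each). Insl3, a hormone of Leydig cells, differed by -0.04 ± 0.19 (limma, SE; adjusted p of 1) and Cyp11a1, the first enzyme of steroid synthesis, by 0.17 ± 0.08, with no overlap between the ages. All 6 macrophage markers lay below the medians, with a difference of -0.035 ± 0.11 for the receptor gene Csf1r and 0.22 ± 0.17 for Cd68, or 0.024 for Cd68 without 21-day-old replicate 1. So did 3 of 4 endothelial markers, with -0.17 ± 0.18 for the cadherin gene Cdh5 and 0.26 ± 0.17 for the receptor gene Kdr. Cdh5 differed by -0.053 without 9-day-old replicate 3 and Kdr by 0.10 without 21-day-old replicate 3. Fibroblast markers had 6 of 7 means lower at 21 days, and the receptor gene Pdgfra was at 7.86, 8.24 and 7.70 in 21-day-old replicates 1, 2 and 3, against 8.48, 8.93 and 8.59 in the 9-day-old replicates. Its ages did not overlap, with a difference of -0.73 ± 0.18 (limma, SE; adjusted p of 1). The collagen genes Col1a1 and Col1a2 differed by -0.08 ± 0.20 and -0.18 ± 0.26.

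**Figure D5:**
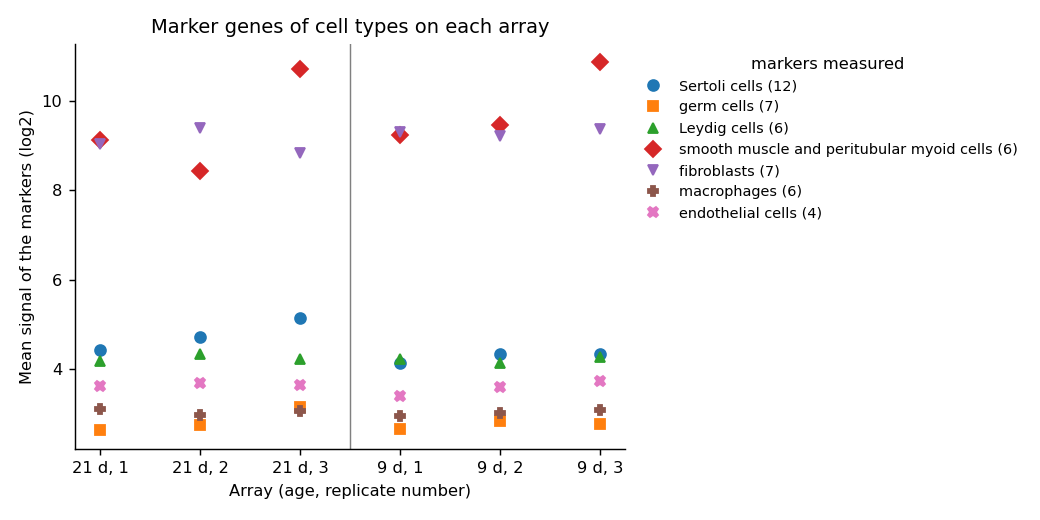
Mean log2 signal (vertical axis) of the marker genes of 7 cell types on each array (horizontal axis, age and replicate number), with the number of markers measured in parentheses. Red diamonds, for smooth muscle and peritubular myoid cells, are highest in the arrays numbered 3 at both ages (10.73 at 21 days and 10.87 at 9 days), and blue circles, for Sertoli cells, are highest in 21-day-old replicate 3 (5.15).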

How the data were processed

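Total RNA of 6 rat testis cell cultures was hybridised to Affymetrix arrays with biotin-labelled cDNA, per the labels' protocols. Per the submitters' processing notes, the authors used RMA to make the deposited log2 values. The sources used here do not state which version or settings. RMA corrects the background, normalizes arrays by quantiles and summarises each probe set. The table held 29214 probe sets, and GEO's platform annotation names 1 gene for 15310 of them and several for 323. For 527 genes with more than 1 such probe set the one of highest mean was used, which left 14506 genes. Samples were grouped by their titles. The ages were compared in limma 3.58.1 (R 4.3.3) with lmFit and eBayes, without covariates or filter, and p-values were adjusted over all genes by the Benjamini-Hochberg method. Single genes were also compared by an exact two-sided permutation test. The code was tested on simulated data.

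The 5 genes and all lists were chosen with earlier results of these data known, and lists are described by counts and medians alone. Besides the 5 genes, the text names the 3 genes of largest absolute difference in each list of related genes, marker genes of highest mean or largest difference, the 3 most similar genes of each of the 5 whose signal spans at least 1, and measured neighbours. Other markers and list genes were named after their values were seen. Arrays of the same replicate number deviated in the same direction from the mean of each age, with correlations across genes of 0.44, 0.55 and 0.67 for the numbers 1, 2 and 3, each above 0.1, so the numbers, which come from the titles, were taken to pair the arrays. The SEs, intervals and permutation tests given for single genes do not use this pairing unless the block is named. The alternatives were the replicate number as a block, other scalings, variance models, probe set rules and a filter, array weights, and leaving out arrays. Scan dates, slides and detection calls were not used here, so batches were not tested, and the number of arrays limits the precision. Promoter windows were found in the RefSeq table for 3 of the 5 genes. Plots were made in Python 3.11.15 with matplotlib 3.10.9.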

Additional observations from a re-analysis of the deposited data

How the results depend on the processing

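None of the 5 genes passed the threshold under any of 14 alternatives, and no alternative called any of the 14506 genes or any gene of the 6 lists. With the replicate number as a block the differences were the same and the adjusted p-values of limma were 0.65 for Shbg, 0.50 for Clu, 0.91 for Ptgds, 0.67 for Aard and 0.83 for Tsx; 1122 genes had an unadjusted p under 0.05 in that fit, against 431 without the block, and Clu was 1 of them. The SEs with the block were 0.47 for Shbg, 0.18 for Clu, 0.093 for Ptgds, 0.30 for Aard and 0.37 for Tsx. Without it they were 0.61, 0.40, 0.12, 0.35 and 0.40. The block changed no call at the adjusted threshold. Without 1 array at a time the differences were 0.46 to 1.68 for Shbg, 0.31 to 1.02 for Clu, -0.045 to 0.13 for Ptgds, 0.41 to 0.98 for Aard and -0.034 to 0.73 for Tsx. Without both arrays numbered 3 they kept their sign except for Tsx (-0.14). Array weights gave 0.86 for Shbg, 0.55 for Clu, 0.018 for Ptgds, 0.50 for Aard and 0.29 for Tsx.

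Of 49 other genes named by rule, 16 turned in sign without a single array, with ranges of -0.19 to 0.041 for Lrp1, -0.14 to 0.014 for Lrpap1, -0.14 to 0.69 for Slco2a1, -0.0088 to 0.55 for Ptgis, -0.38 to 0.61 for Apoe, -0.30 to 0.035 for Apoa5, -0.20 to 0.46 for Tex101, -0.15 to 0.15 for Insl3, -0.55 to 0.046 for Acta2, -0.40 to 0.13 for Tagln, -1.65 to 0.038 for Actg2, -0.23 to 0.097 for Col1a1, -0.39 to 0.031 for Col1a2, -0.093 to 0.063 for Csf1r, -0.052 to 0.62 for Aldh6a1 and -0.015 to 0.56 for Gbp5. Without both arrays numbered 3 the sign turned for Dab2 (-0.049), Lrp1 (0.026), Tex101 (-0.23), Csf1r (0.0079), Cdh5 (0.044), Aldh6a1 (-0.062) and Gbp5 (-0.080). The cause of these turns was not tested beyond leaving out the arrays. Leaving out a single array also leaves the other array of its replicate number in. By replicate number, Ptgis differed by 0.24, 0.21 and 0.50 and Acta2 by -0.0082, -0.52 and -0.20. In the same pairs Actg2 differed by -0.31, -1.51 and -0.28 and Col1a2 by -0.10, -0.25 and -0.19. For the other genes that turned without a single array, the pairs were not all of 1 sign. Signals under the medians of the arrays limit what can be read for Ptgds, Tsx and Shbg.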

Other observations

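A few genes of the lists, singled out after their values were seen, stood out by replicate number or by their peak in 21-day-old replicate 3. Ptges, which encodes a prostaglandin E synthase, was at 9.68, 10.24 and 7.50 in 21-day-old replicates 1, 2 and 3, against 9.09, 10.18 and 7.25 in the 9-day-old replicates. It was thus low in the arrays numbered 3 at both ages, while the synthase gene Ptgds was not. The inhibin subunit gene Inha, also of a secreted protein, was at 4.11, 5.43 and 6.58 at 21 days and 3.86, 4.62 and 4.55 at 9 days, and as for Shbg its highest array was 21-day-old replicate 3 and its lowest older array replicate 1. The protease inhibitor gene A2m was at 6.57, 6.84 and 9.04 at 21 days and 7.41, 6.22 and 7.61 at 9 days, highest in 21-day-old replicate 3 as well. Kitlg, which encodes a growth factor for germ cells, was at 5.27, 4.97 and 4.72 at 21 days and 4.75, 4.61 and 3.95 at 9 days, lowest in the arrays numbered 3 at each age.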
